A study of Homo sapiens with 8 samples.

Results

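Transcript levels of the core spliceosome outside the SF3a and SF3b complexes were examined in the human uveal melanoma cell line MEL202, an established line that carries mutated SF3B1, a splicing factor. The list held 51 gene names, fixed by name and not by their levels. A gene was taken as a member where a locus of the deposited table carried exactly that name. Where several loci did, the one with the highest mean over the 8 libraries was used, with a mean of at least 1. This gave 47 genes of 10520 named genes tested and of 32087 loci in the table. The locus named SF1, after the branch point binding protein, had a mean of 0.19 and so fell under the minimum. Whether that locus holds the reads of the gene was not tested, so no level of SF1 is given here. DDX46, LSM3 and RBM8A were not analysed here. The 47 genes comprised 7 of the Sm ring, 3 of U1, 5 of U2 and of branch point or 3′ splice site recognition, 4 of the LSM ring, 10 of the U4/U6.U5 tri-snRNP, 9 of the Prp19 complex and its partners, 7 helicases and second step factors, and 2 of the exon junction complex.

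RNA sequencing had been done on 8 libraries, 1 per group, from 4 MEL202 lines that were each kept without and with Shld. Shld is a small ligand that stabilises a protein fused to the destabilising domain (DD), so that without it the fusion protein is degraded. The lines are mut-SF3B1 KO, in which the mutant allele was knocked out, DD-mut-SF3B1, with the domain on mutant SF3B1, DD-wt-SF3B1, with the domain on wildtype SF3B1, and parental cells (repeat #1). All 3 engineered lines are labelled with 2 days, and parental cells with no time. The table's column names say something else for mut-SF3B1 KO: they add a destabilising domain at the wildtype allele and give 4 days without Shld, and they give 4 days for parental cells without Shld as well. The labels list the lines under the heading clone without saying that a line grew from 1 cell, and do not say whether the 2 libraries of a line came from separate cultures, so the p-values reflect how these libraries vary, which may be technical variation. Values of a line are given below as without Shld and then with Shld.

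The values are taken as FPKM (fragments mapped, scaled to transcript length and library size). They were rescaled by the authors to a 75th percentile of 10 in every library, and are called levels here. Absolute depth is unknown. The values of a library summed to between 762679 and 961994, and transcripts of 69 RPL and RPS loci took 11.8% and 12.1% of that sum in DD-wt-SF3B1 against 16.6% to 21.0% in the other 6 libraries. SF3B1 itself stood at 138 and 158 in mut-SF3B1 KO, at 252 and 248 in DD-mut-SF3B1, at 201 and 188 in DD-wt-SF3B1 and at 240 and 266 in parental cells. It was lower in mut-SF3B1 KO (log2 difference -0.77 ± 0.10, adjusted p = 0.00053) and in DD-wt-SF3B1 (-0.38 ± 0.10, adjusted p = 0.015) than in parental cells. The summed level of the 9 measured melanocyte markers, of 11 listed, was 6550 and 7296 in mut-SF3B1 KO, 9262 and 7660 in DD-mut-SF3B1, 14343 and 15592 in DD-wt-SF3B1 and 13043 and 12039 in parental cells. Markers of other cell types summed to between 0.27 and 1.26, and none with a level here reached a mean of 1. Of the 10 listed, COL1A1 and PDGFRB had no level here.

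Introns are removed by small nuclear ribonucleoproteins (snRNPs) that assemble anew on each intron. U1 recognises the 5′ splice site and U2 the branch point, where SF3B1 acts; the U4/U6.U5 tri-snRNP then joins, and the Prp19 complex and a series of helicases remodel the assembly through both catalytic steps. Sm proteins form a ring around the RNA of U1, U2, U4 and U5, and the related LSM proteins form the ring of U6. SF3B1 mutations are frequent in uveal melanoma and change the choice of branch point and 3′ splice site.

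Spliceosome transcripts were abundant in all lines. Mean levels over the 8 libraries ran from 5.99 for PUF60, a U2AF-related 3′ splice site factor, to 593 for SNRPD2, an Sm ring subunit. The median of the 47 was 66.7, against 18.9 for all genes tested, and 42 of the 47 lay at or above the latter. Together they took 0.510% and 0.499% of all values in DD-wt-SF3B1 and 0.543% to 0.623% in the other 6 libraries. The parts of the machine did not differ between lines in the same way. Sm and LSM ring genes were lower in DD-wt-SF3B1 than in parental cells, and several large tri-snRNP and helicase genes were higher there. AQR was higher than in parental cells in every engineered line, most in mut-SF3B1 KO and least in DD-wt-SF3B1.

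**Figure D1:**
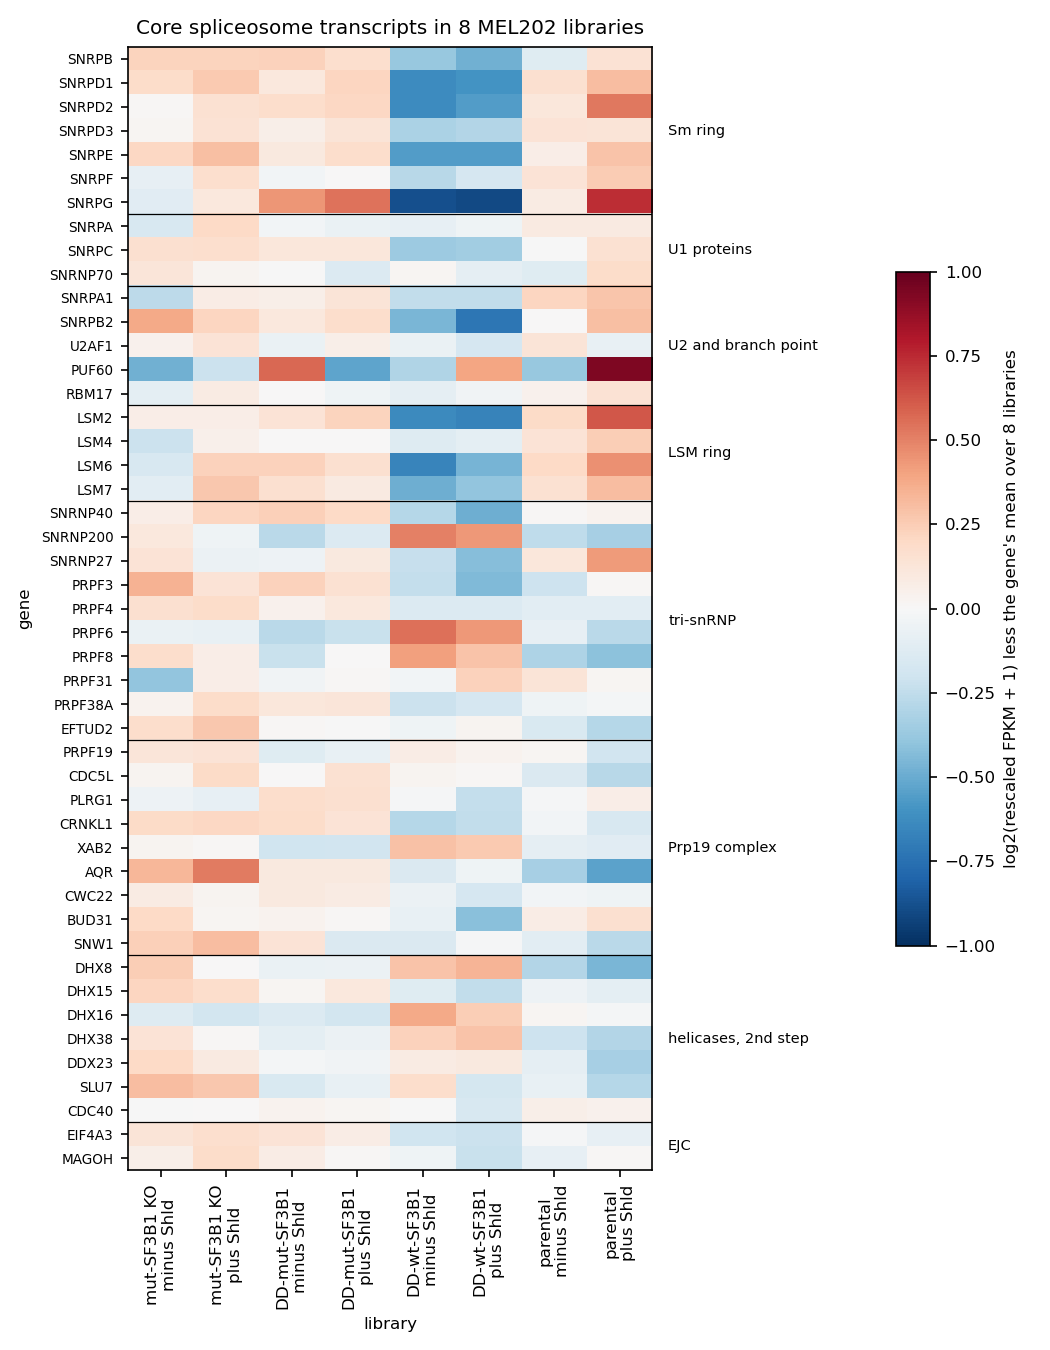
Level of each of the 47 genes in each of the 8 libraries, as log2(level + 1) less the gene's own mean over the 8 libraries (colour), with genes in rows grouped by role and libraries in columns. The 2 DD-wt-SF3B1 columns are blue over the Sm and LSM rings, and red for SNRNP200, PRPF6 and PRPF8.

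Lines were compared with limma, a linear model fitted to all 10520 genes on log2(level + 1) with the line and the Shld state as terms. Each line therefore had 2 libraries and ± is the standard error of the model. Changes of low genes are understated on this scale. A gene was called at a Benjamini-Hochberg adjusted p under 0.05 over all genes. These lines differed widely: 42.8% of all genes were called between DD-wt-SF3B1 and parental cells (21.1% higher, 21.7% lower), 39.6% between mut-SF3B1 KO and parental cells (18.1% higher, 21.5% lower), and 25.8% between DD-mut-SF3B1 and parental cells (11.7% higher, 14.1% lower). The 3 comparisons share the parental libraries.

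In DD-wt-SF3B1 against parental cells, 9 members were higher and 17 lower, 26 of 47. The median of the 47 differences was -0.16, against 0.0015 over all genes. Both DD-wt-SF3B1 libraries lay below both parental libraries for 27 members (37.8% of all genes) and above both for 12 (37.8% of all genes), and they overlapped for 8. Without the DD-wt-SF3B1 library with Shld, 4 were higher and 8 lower, and without the parental library with Shld 5 were higher and 12 lower. Over all genes, too, fewer were called when either of these libraries was left out. Across all 18 alternative settings 11 of the 26 members stayed past the threshold, namely SNRPG, SNRPD1, SNRPD2, SNRPE, LSM2, LSM6, SNRPB2, SNRNP200, PRPF8, PRPF6 and DHX8. In mut-SF3B1 KO against parental cells, 14 members were higher and 3 lower, with a median of 0.09 against -0.03 over all genes. Both mut-SF3B1 KO libraries lay above both parental libraries for 24 members (31.8% of all genes) and below for 6 (36.2%). Of the 17 calls 1, AQR, was kept in all 18 alternative settings, while LSM2 was past the threshold in 3 of them, CRNKL1 and LSM4 in 5 each and PRPF3 in 7. The count of calls depended on single libraries: 3 were higher and 0 lower without the parental library with Shld, 5 and 0 without the mut-SF3B1 KO library without Shld, 6 and 4 without the one with Shld, and 9 and 1 without either DD-wt-SF3B1 library. Fewer of all genes were called as well when any of these libraries was left out. Quantile normalization gave 16 members higher and 0 lower, beside 2088 and 2032 of all genes. In DD-mut-SF3B1 against parental cells 1 member, AQR, was higher and 0 were lower, with a median of -0.01 against -0.04 over all genes. An unadjusted p under 0.05 was found for 8 members and for 4145 of the 10520 genes. Both libraries lay above both parental ones for 18 members (30.7% of all genes) and below for 12 (37.9%). Leaving out single libraries moved this count to between 0 and 2, with 0 without the DD-mut-SF3B1 library with Shld.

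**Figure D2:**
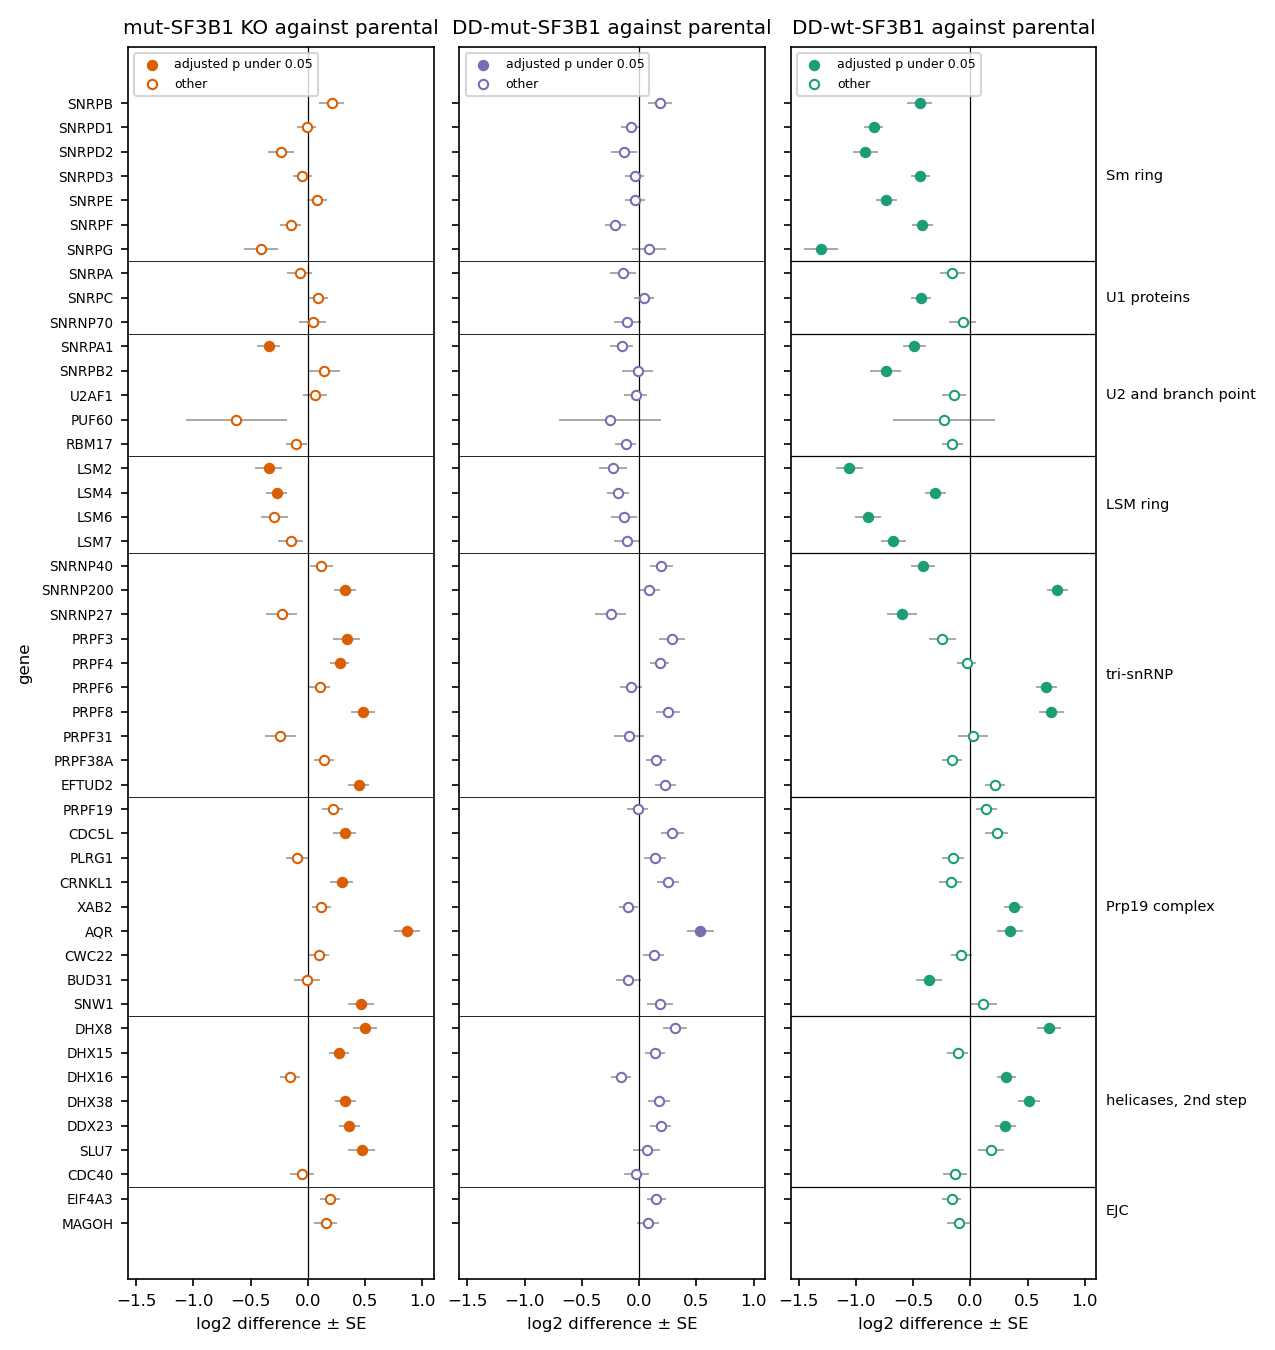
Log2 difference in level of each gene (horizontal axis, with the standard error of the model) between each engineered line and parental cells, with filled points at an adjusted p under 0.05 and genes grouped by role. All 7 Sm ring and all 4 LSM ring genes lie left of 0 in DD-wt-SF3B1, and AQR is the rightmost point in mut-SF3B1 KO and DD-mut-SF3B1.

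The Sm ring was lower in DD-wt-SF3B1 in all 7 of its genes. Its summed level was 1240 and 1250 in DD-wt-SF3B1, against 1879 and 2046 in mut-SF3B1 KO, 2080 and 2130 in DD-mut-SF3B1 and 1889 and 2406 in parental cells. In a bulk library fewer cells of a kind and less RNA per cell cannot be told apart. SNRPG, the subunit of the ring with the largest difference, stood at 289 and 335 in mut-SF3B1 KO, 424 and 455 in DD-mut-SF3B1, 169 and 166 in DD-wt-SF3B1 and 330 and 520 in parental cells. Both DD-wt-SF3B1 values were the lowest of the 8, while the parental pair itself spanned a wide range. The difference of DD-wt-SF3B1 from parental cells was -1.30 ± 0.15 (adjusted p = 0.00091). SNRPD2 stood at 581 and 640 in mut-SF3B1 KO, 650 and 663 in DD-mut-SF3B1, 371 and 390 in DD-wt-SF3B1 and 623 and 829 in parental cells. The difference was -0.92 ± 0.11 (adjusted p = 0.00098), again with no overlap between DD-wt-SF3B1 and any other line. SNRPD1 stood at 101 and 106 in mut-SF3B1 KO, 95.3 and 103 in DD-mut-SF3B1, 57.0 and 58.4 in DD-wt-SF3B1 and 99.3 and 110 in parental cells. Its 6 other values lay close together, and the difference of DD-wt-SF3B1 from parental cells was -0.84 ± 0.08 (adjusted p = 0.00079). SNRPE differed by -0.73, SNRPB by -0.44, SNRPD3 by -0.44 and SNRPF by -0.42.

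Within the ring, SNRPD2 was the highest and SNRPD1 the lowest in all 8, with a ratio between 5.76 and 7.55. Levels are taken as scaled to transcript length, but the lengths used for that are not known, so this ratio between genes is approximate. Neither mut-SF3B1 KO nor DD-mut-SF3B1 had a called Sm ring gene against parental cells, and SNRPG came nearest in mut-SF3B1 KO (-0.41 ± 0.15, adjusted p = 0.056). GENCODE names 20 pseudogenes after SNRPG, 9 after SNRPE, 4 after SNRPF, 2 after SNRPD2 and 1 after SNRPB. How reads shared with such copies were counted is not given in the sources used here, so these levels are uncertain to that extent. GENCODE names none after SNRPD1 and SNRPD3.

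**Figure D3:**
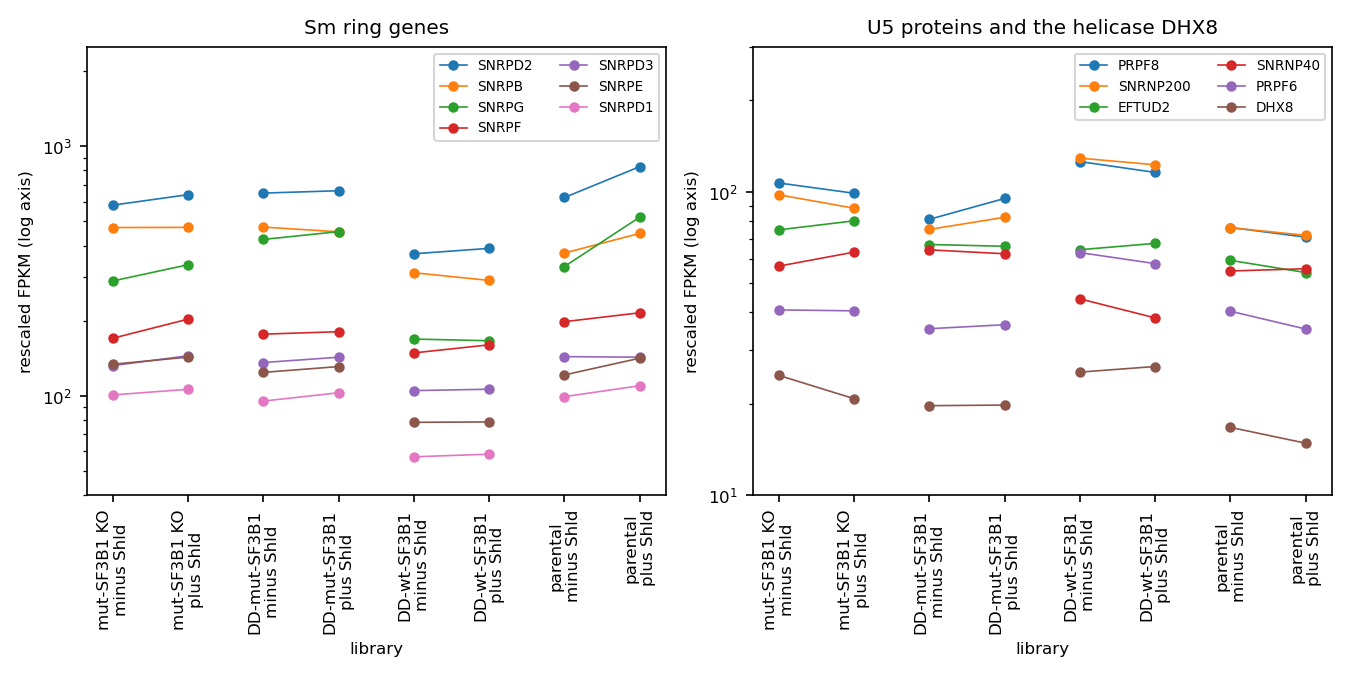
Level (rescaled FPKM, log axis) in each of the 8 libraries for the 7 Sm ring genes (left) and for 5 proteins of the U5 snRNP with the helicase DHX8 (right); lines join the 2 libraries of a cell line. The Sm genes dip in both DD-wt-SF3B1 libraries, where SNRNP200 and PRPF8 stand above their level in the other 6.

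Of the LSM ring, which binds the end of U6 RNA, all 4 genes among the members were lower in DD-wt-SF3B1 than in parental cells. LSM2 stood at 160 and 159 in mut-SF3B1 KO, 167 and 178 in DD-mut-SF3B1, 97.6 and 95.5 in DD-wt-SF3B1 and 174 and 235 in parental cells. It was lower in DD-wt-SF3B1 by -1.06 ± 0.12 (adjusted p = 0.00090), with both values under all others. LSM6 stood at 26.4 and 34.9 in mut-SF3B1 KO, 34.9 and 33.2 in DD-mut-SF3B1, 18.3 and 21.1 in DD-wt-SF3B1 and 34.2 and 41.0 in parental cells, a difference of -0.89 ± 0.12 between DD-wt-SF3B1 and parental cells (adjusted p = 0.0011). LSM7 differed by -0.67 and LSM4 by -0.30 (adjusted p = 0.0023 and 0.028), and in the case of LSM4 the mut-SF3B1 KO library without Shld was lower still, at 91.3 against 96.6 and 98.9 in DD-wt-SF3B1. LSM2 (-0.34, adjusted p = 0.0498) and LSM4 (-0.27, adjusted p = 0.046) were also called lower in mut-SF3B1 KO than in parental cells.

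Among the proteins specific to U1, SNRPC, which stabilises pairing with the 5′ splice site, was lower in DD-wt-SF3B1. It stood at 319 and 321 in mut-SF3B1 KO, 309 and 309 in DD-mut-SF3B1, 222 and 224 in DD-wt-SF3B1 and 285 and 317 in parental cells. The difference of DD-wt-SF3B1 from parental cells was -0.43 ± 0.09 (adjusted p = 0.0052), and GENCODE names 18 pseudogenes after SNRPC. SNRPA, the U1 protein that binds a stem loop of its RNA, and SNRNP70, which binds another, were not called in any line against parental cells, with differences between -0.16 and 0.04.

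The U2 proteins SNRPA1 and SNRPB2, which bind U2 RNA as a pair, were both lower in DD-wt-SF3B1. SNRPB2 stood at 102 and 90.9 in mut-SF3B1 KO, 84.0 and 88.5 in DD-mut-SF3B1, 56.8 and 47.1 in DD-wt-SF3B1 and 78.3 and 96.8 in parental cells. Its difference was -0.74 ± 0.13 (adjusted p = 0.0032) and the DD-wt-SF3B1 values were the lowest. SNRPA1 stood at 56.2 and 71.2 in mut-SF3B1 KO, 70.6 and 74.2 in DD-mut-SF3B1, 57.1 and 57.1 in DD-wt-SF3B1 and 78.6 and 82.5 in parental cells. It was lower in DD-wt-SF3B1 (-0.49 ± 0.10, adjusted p = 0.0057) and in mut-SF3B1 KO (-0.34 ± 0.10, adjusted p = 0.027) than in parental cells. U2AF1, which reads the AG of the 3′ splice site, and RBM17, an alternative splicing factor at that site, were not called in any line, with differences between -0.16 and 0.06. PUF60 was uneven within lines. It stood at 3.69 and 4.61 in mut-SF3B1 KO, 8.73 and 3.52 in DD-mut-SF3B1, 4.29 and 7.60 in DD-wt-SF3B1 and 4.02 and 11.5 in parental cells. The standard error of its line differences was 0.44, larger than that of any other member.

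Within the tri-snRNP the genes went opposite ways. In DD-wt-SF3B1 against parental cells 3 of the 10 were higher and 2 lower. SNRNP200, the helicase that unwinds U4 from U6, stood at 97.7 and 88.2 in mut-SF3B1 KO, 75.15 and 82.4 in DD-mut-SF3B1, 129 and 123 in DD-wt-SF3B1 and 76.1 and 71.8 in parental cells. The difference of DD-wt-SF3B1 from parental cells was 0.76 ± 0.09 (adjusted p = 0.00098) and both of its values were the highest of the 8. PRPF8, the scaffold at the catalytic centre, stood at 107 and 98.9 in mut-SF3B1 KO, 81.1 and 95.1 in DD-mut-SF3B1, 126 and 116 in DD-wt-SF3B1 and 76.2 and 70.9 in parental cells. It was higher in DD-wt-SF3B1 (0.71 ± 0.11, adjusted p = 0.0016) and in mut-SF3B1 KO (0.48 ± 0.11, adjusted p = 0.0079). PRPF6, which bridges U5 and U4/U6, stood at 40.8 and 40.5 in mut-SF3B1 KO, 35.4 and 36.5 in DD-mut-SF3B1, 63.0 and 58.0 in DD-wt-SF3B1 and 40.4 and 35.3 in parental cells. Its difference in DD-wt-SF3B1 was 0.66 ± 0.09 (adjusted p = 0.0013), while its 6 other values lay between 35.3 and 40.8.

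EFTUD2, the GTPase of U5, was not called there (0.21, adjusted p = 0.087). SNRNP40 and SNRNP27 were lower in DD-wt-SF3B1. SNRNP40, a WD-repeat protein of U5, stood at 56.9 and 63.3 in mut-SF3B1 KO, 64.3 and 62.5 in DD-mut-SF3B1, 44.4 and 38.4 in DD-wt-SF3B1 and 54.8 and 55.8 in parental cells (-0.41 ± 0.10 in DD-wt-SF3B1 against parental cells, adjusted p = 0.012). SNRNP27 differed by -0.60 ± 0.13 (adjusted p = 0.0081). In mut-SF3B1 KO against parental cells, 5 of the 10 were higher: besides PRPF8 these were EFTUD2 (0.44 ± 0.09, adjusted p = 0.0054), the U4/U6 proteins PRPF3 (0.34) and PRPF4 (0.28), and SNRNP200 (0.32). PRPF31, another U4/U6 protein, had the lowest log2 difference of the group in that line, -0.24, which was not called. The summed tri-snRNP level was 590 and 589 in mut-SF3B1 KO, 535 and 559 in DD-mut-SF3B1, 607 and 583 in DD-wt-SF3B1 and 506 and 501 in parental cells. It was thus not lowest in DD-wt-SF3B1, unlike the sum of the Sm ring.

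Because genes of one complex went opposite ways in DD-wt-SF3B1, the DNA just before the start of such genes is shown for those whose window there held no annotated exon. These are SNRNP40, which was lower, and SNRNP200 and PRPF6, which were higher. Each is the 100 bases before the start of the RefSeq entry (GRCh38.p14), 5′ to 3′ on the gene's strand: SNRNP40 at chr1:31296789-31296888 (minus strand), SNRNP200 at chr2:96305547-96305646 (minus strand) and PRPF6 at chr20:63981032-63981131 (plus strand). Capitals mark a match to an ETS core, whose letters are CCGGAAG, to a GC box, which reads GGGCGG, or to a CCAAT box, named after its letters. Each may stand on either strand, so that the reverse complement is marked too, and no marked match overlaps another.
SNRNP40: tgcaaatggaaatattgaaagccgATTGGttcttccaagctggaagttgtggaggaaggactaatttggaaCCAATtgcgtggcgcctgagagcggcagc
SNRNP200: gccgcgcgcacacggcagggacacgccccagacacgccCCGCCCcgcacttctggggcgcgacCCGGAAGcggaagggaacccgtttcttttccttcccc
PRPF6: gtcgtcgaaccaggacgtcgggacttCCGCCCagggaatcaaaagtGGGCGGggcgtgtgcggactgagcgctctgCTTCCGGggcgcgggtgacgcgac
SNRNP40 holds a CCAAT box on each strand. SNRNP200 holds an ETS core and a GC box, and PRPF6 an ETS core and a GC box on each strand. Over the 250 bases before the start, searched on both strands, 19 of 43 members with an entry held the ETS core (44.2%), against 16.1% of 7695 genes tested here and 8.82% of all 27305 promoters. The core was in 9 of the 15 members called lower in DD-wt-SF3B1 with an entry and in 7 of the 9 called higher. The GC box was in 62.8% of members and 68.0% of genes tested (42.3% of all promoters), and the CCAAT box in 37.2% and 35.2% (33.0%). An NRF1 core, GCATGCGC, and a TATA sequence, with the letters TATAAA, were in 2 members each, 4.65%, against 4.94% and 4.87% of genes tested (2.81% and 11.1% of all promoters). A match of letters is no binding site by itself.

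The Prp19 complex and its partners held the gene that stood apart in mut-SF3B1 KO. AQR, an RNA helicase that binds the intron upstream of the branch point, stood at 18.2 and 20.9 in mut-SF3B1 KO, 15.3 and 15.3 in DD-mut-SF3B1, 12.8 and 13.8 in DD-wt-SF3B1 and 11.1 and 9.47 in parental cells. Every engineered library was above both parental libraries, and the lines did not overlap. AQR was higher than in parental cells by 0.87 ± 0.12 in mut-SF3B1 KO (adjusted p = 0.00063), 0.54 ± 0.12 in DD-mut-SF3B1 (adjusted p = 0.011) and 0.35 ± 0.12 in DD-wt-SF3B1 (adjusted p = 0.039). The first of these calls held in all 18 alternative settings, with differences between 0.59 and 1.02. The DD-mut-SF3B1 call was lost in 4 settings, namely without either DD-mut-SF3B1 library, without the parental library with Shld and with the length correction described below, and the DD-wt-SF3B1 call in 11 settings. CDC5L and CRNKL1, core subunits of the complex, and SNW1, its transcription-linked partner, were higher in mut-SF3B1 KO than in parental cells by 0.32, 0.30 and 0.46 (adjusted p = 0.036, 0.043 and 0.014). XAB2, a TPR-repeat scaffold, was higher in DD-wt-SF3B1 (0.38 ± 0.08, adjusted p = 0.0080), at 31.1 and 30.4 against 23.6 and 23.2 in parental cells. BUD31 was lower there (-0.36 ± 0.11, adjusted p = 0.029), at 156 and 123 against 172 and 183 in parental cells. PRPF19, the ubiquitin ligase of the complex, PLRG1 and CWC22 were not called in any line against parental cells, with differences between -0.15 and 0.22.

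Of the 7 helicases and second step factors, 4 were higher in DD-wt-SF3B1 and 5 in mut-SF3B1 KO than in parental cells, and 0 were lower in either, where 21.1% and 18.1% of all genes were higher. Their transcripts are all at least 2994 bases long. Of genes over 2500 bases, 30.0% were higher and 11.8% lower in DD-wt-SF3B1, and 25.3% higher and 15.6% lower in mut-SF3B1 KO. DHX8, which releases the spliced mRNA, stood at 24.8 and 20.8 in mut-SF3B1 KO, 19.7 and 19.8 in DD-mut-SF3B1, 25.4 and 26.5 in DD-wt-SF3B1 and 16.7 and 14.8 in parental cells. It was higher by 0.69 ± 0.10 in DD-wt-SF3B1 (adjusted p = 0.0017) and by 0.50 ± 0.10 in mut-SF3B1 KO (adjusted p = 0.0060). DHX38, the helicase between the catalytic steps, was higher by 0.51 and 0.33 in these lines, and DDX23, which helps U1 leave the 5′ splice site, by 0.31 and 0.36. DHX16, which acts before the first step, was called in DD-wt-SF3B1 only, at 46.3 and 42.3 against 36.0 and 34.9 in parental cells (0.31 ± 0.08, adjusted p = 0.017), and its direct difference between mut-SF3B1 KO and DD-wt-SF3B1 was -0.47 ± 0.08 (adjusted p = 0.0020). SLU7, a second step factor (0.47, adjusted p = 0.013), and DHX15, which takes spent spliceosomes apart (0.27, adjusted p = 0.039), were higher in mut-SF3B1 KO. CDC40, another second step factor, was not called in any line, with differences between -0.13 and -0.02. EIF4A3 and MAGOH of the exon junction complex, which marks spliced mRNA, were not called against parental cells in any line either, with differences between -0.16 and 0.19.

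The engineered lines were also set against each other. Between DD-wt-SF3B1 and DD-mut-SF3B1, 7 members were higher and 19 lower, where 51.2% of all genes were called, 27% higher and 24.2% lower, and the median was -0.21 against 0.01 over all genes. Of the 7 Sm genes 6 were lower, SNRPG by -1.38 ± 0.15 (adjusted p = 0.00022), and SNRPF was not called (-0.21). PRPF6 (0.74), SNRNP200 (0.67), DHX16 (0.47), XAB2 (0.47), PRPF8 (0.45), DHX8 (0.38) and DHX38 (0.34) were the 7 higher. Between mut-SF3B1 KO and DD-wt-SF3B1, 23 members were higher and 4 lower, with 50.3% of all genes called, 24.8% higher and 25.5% lower, and a median of 0.27 against 0.0063. The 23 included all 7 Sm genes, from 0.27 for SNRPF to 0.89 for SNRPG, and PRPF6, DHX16, SNRNP200 and XAB2 were the 4 lower. Both comparisons use the DD-wt-SF3B1 libraries that the comparison with parental cells used, so they are no separate evidence on that line. Without the DD-wt-SF3B1 library with Shld, 5 were higher and 12 lower against DD-mut-SF3B1. Leaving out the DD-wt-SF3B1 library without or with Shld left 15 and 14 higher and 2 and 3 lower in mut-SF3B1 KO. Over all genes, too, fewer were called when these DD-wt-SF3B1 libraries were left out. Between mut-SF3B1 KO and DD-mut-SF3B1, 0 members were called with limma, where 13.7% of all genes were called. An unadjusted p under 0.05 was found for 9 members and for 3071 of the 10520 genes. Among members, the largest differences were 0.40 ± 0.12 for SLU7 (adjusted p = 0.055) and -0.50 ± 0.15 for SNRPG (adjusted p = 0.060).

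Transcript length moved with the difference between DD-wt-SF3B1 and parental cells. Over the 9539 tested genes with a length in GENCODE, the Spearman correlation of the log2 difference with length was 0.44, and over the 47 members 0.69. These are descriptions across genes of the same libraries. Genes under 1000 bases had a median difference of -0.40, with 56.2% called lower, and the 9 members among them had a median of -0.67, with 7 called lower. Those of 1000 to 2500 bases had a median of -0.12 with 30.2% called lower, and the 17 members among them had -0.30, with 9 called lower. Genes over 2500 bases had a median of 0.13 with 30.0% called higher, and the 21 members among them had 0.21, with 9 called higher. Sm ring transcripts had a median length of 1081 bases, and tri-snRNP transcripts one of 3022. A smooth fit of the library differences on length was then subtracted. Against parental cells, 9 members were called higher and 11 lower in DD-wt-SF3B1, beside 1879 higher and 1750 lower of 9539 genes. Of the original calls 8 of 9 higher and 9 of 17 lower were kept, and MAGOH (0.35, against -0.10 before) was newly called higher and PRPF38A (-0.32) and CRNKL1 (-0.28) newly lower. SNRPG (-0.71), SNRPD2 (-0.41), SNRPD1 (-0.98), SNRPE (-0.26) and SNRPD3 (-0.30) were still called lower, and LSM2 (-0.66) and LSM6 (-0.83) too. SNRPB, SNRPF, LSM4, LSM7, SNRPA1, SNRNP40 and BUD31 lost their call, and SNRPC (0.04) and AQR (-0.05) lost theirs with the sign turned. SNRNP200 (0.47), PRPF8 (0.41), PRPF6 (0.65) and DHX8 (0.56) were still called higher. The outcome depended on which lengths were used. With the median length of all protein-coding transcripts of a gene, a setting chosen after seeing the data, 9 members were called higher and 17 lower. Of the original calls 8 of 9 and 15 of 17 were kept, without AQR, LSM4 and BUD31. Of 9367 genes, 1982 were higher and 1817 lower in that setting. The part of the lower RPL and RPS share and of the melanocyte markers in these differences was not tested. In mut-SF3B1 KO against parental cells the correlations with length were 0.30 over all genes and 0.57 over members. The first subtraction gave 17 members higher and 0 lower, beside 1820 higher and 1903 lower of 9539 genes. Of the 14 higher member calls 11 were kept and 6 were new, among them the Sm genes SNRPB (0.41) and SNRPE (0.33). With protein-coding lengths 12 members were higher and 0 lower, beside 1828 and 1931 of 9367 genes.

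**Figure D4:**
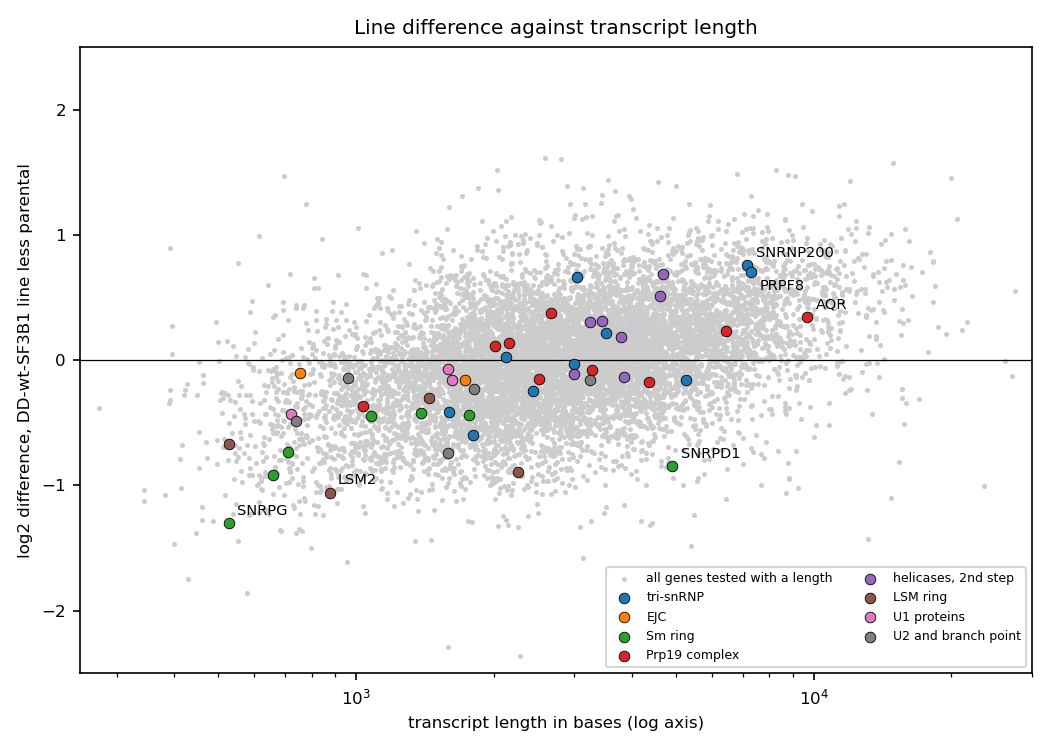
Log2 difference between DD-wt-SF3B1 and parental cells against transcript length (log axis) for the genes tested (grey, 9532 of 9539 within the axes) and the 47 members, coloured by role. Short transcripts such as SNRPG and LSM2 lie low and long ones such as SNRNP200 and PRPF8 high. SNRPD1, at 4909 bases by the lengths used first, lies low as well.

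The Shld comparison asked what loss of the tagged SF3B1 protein does within a line. Here each state had 1 library, and limma took the spread from the parental pair, which has no degron, which supposes the same spread for the other 6 libraries. Called were 0 members in mut-SF3B1 KO (0.532% of all genes), 0 in DD-mut-SF3B1 (0.057%) and 0 in DD-wt-SF3B1 (0.038%), and 2, 1 and 0 members had an unadjusted p under 0.05. Unadjusted p-values under 0.05 were found over all genes in each of these lines too. Over the 4 lines together 0 members and 0% of all genes were called, and 1 member, LSM6, and 636 genes had an unadjusted p under 0.05. In the differences between lines in their response, 0 members were called for DD-wt-SF3B1 less DD-mut-SF3B1 (0.0475% of all genes), for mut-SF3B1 KO less DD-mut-SF3B1 (0.133%) and for mut-SF3B1 KO less DD-wt-SF3B1 (0.057%). Among members, PUF60 differed most in the first 2 of these, by -1.81 and -1.36. SF3B1 RNA differed by -0.19 ± 0.20 in mut-SF3B1 KO, 0.03 ± 0.20 in DD-mut-SF3B1 and 0.09 ± 0.20 in DD-wt-SF3B1, none called. The domain acts on protein, which was not measured.

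The median difference between the states without and with Shld was -0.03 in mut-SF3B1 KO, -0.0061 in DD-mut-SF3B1, 0.0085 in DD-wt-SF3B1 and -0.0016 in parental cells. At least 1.5-fold apart were 0 members in mut-SF3B1 KO (4.75% of all genes), 1 in DD-mut-SF3B1 (0.856%), 1 in DD-wt-SF3B1 (1.58%) and 2 in parental cells (1.56%). PUF60 was the 1 in both degron lines, with 1.11 ± 0.43 in DD-mut-SF3B1 (unadjusted p = 0.026, adjusted p = 1) and -0.70 ± 0.43 in DD-wt-SF3B1, and in parental cells it stood at -1.31. It thus took both signs, and was as uneven in cells without a degron. The largest differences in mut-SF3B1 KO were those of PRPF31, at 35.1 without and 48.7 with Shld (-0.46 ± 0.16, unadjusted p = 0.017, adjusted p = 0.24), and LSM6 (-0.39 ± 0.17, unadjusted p = 0.046, adjusted p = 0.39). In that line all 7 Sm genes lay below 0, from -0.25 to -0.0023. DNA replication genes moved with them: 0 of 19 lay above 0 there, with a median of -0.54, and POLA1 (-0.96) and POLE2 (-0.96), both of DNA polymerases, were called lower (adjusted p = 0.036 each). In DD-wt-SF3B1 0 of 19 lay above 0 as well, with a median of -0.24 and 0 called, and in DD-mut-SF3B1 7 of 19, with a median of -0.03. Their part in the Sm values was not tested. In parental cells 6 of the 7 Sm genes lay below 0, from -0.66 for SNRPG, and so did all 4 LSM genes. All 7 helicases and second step factors lay above 0 there. In DD-mut-SF3B1 6 of the 7 Sm genes and in DD-wt-SF3B1 5 lay below 0, with medians of -0.07 and -0.02. With 1 library per state, a difference small beside the standard error of the model was not detectable. That error rests on the parental pair, with the spread of each gene drawn toward that of genes at a similar level.

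**Figure D5:**
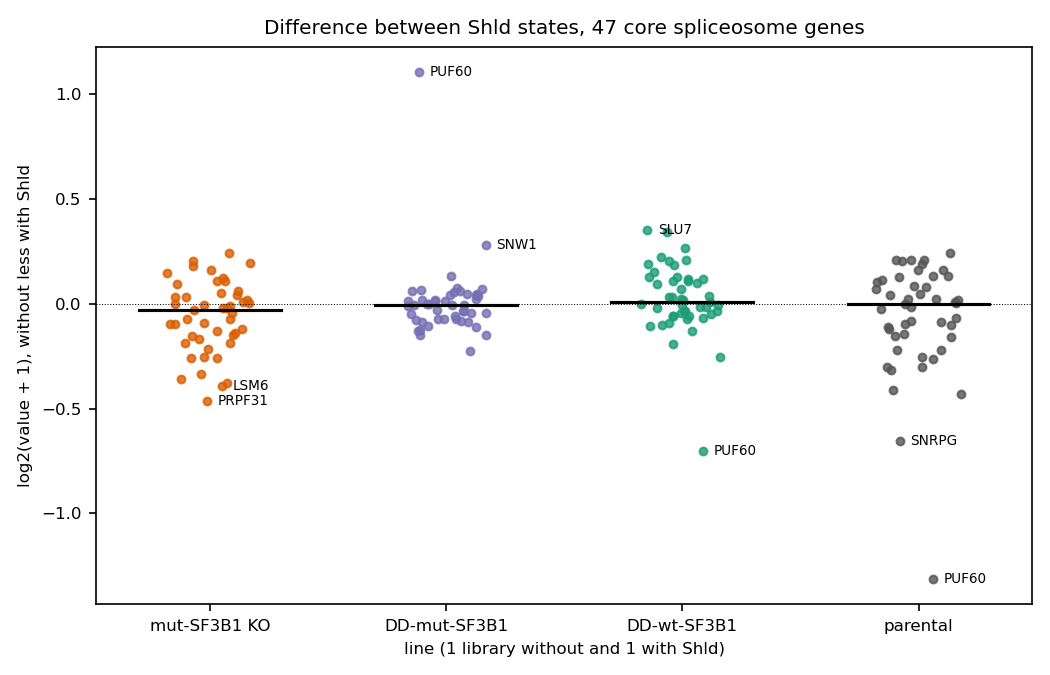
Difference in log2(level + 1) between the library without and the library with Shld in each line (vertical axis) for the 47 genes, with the median as a bar and the 2 genes farthest from 0 named. Members lie mostly within 0.5 of 0, and PUF60 is far from 0 in DD-mut-SF3B1, DD-wt-SF3B1 and parental cells, in both directions.

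Related genes outside the 47 were counted by list, beside 21.1% of all genes higher and 21.7% lower in DD-wt-SF3B1 and 18.1% higher and 21.5% lower in mut-SF3B1 KO. Many of the counts lie near these shares. In DD-wt-SF3B1 against parental cells, 5 of 16 other U1 and U2 associated factors were lower and 2 higher, 6 of 14 other tri-snRNP and B complex factors lower and 1 higher, and 12 of 31 other Prp19 complex and catalytic factors lower and 5 higher. Of 5 LSM proteins outside the 47, whether of the U6 ring or not, 2 were lower, LSM5 by -0.99 and LSM1 by -0.54. Of 10 other exon junction complex and decay factors 5 were lower and 2 higher. Of 7 minor spliceosome proteins 3 were lower and 1 higher. In the list of snRNP assembly factors, which load Sm proteins onto snRNA, 6 of 16 were lower and 1 higher. GEMIN2 (-0.96) and GEMIN6 (-0.84), both of the SMN complex, were among them. SMN2 (-0.70) cannot be told from its near-identical copy SMN1. Of 8 SF3a and SF3b genes 4 were lower, among them SF3B14 (-0.77) and PHF5A (-0.67), which are small subunits, and 3 were higher, SF3B3 by 0.76. DNA replication genes, a list for cell division, had 7 of 19 lower and 0 higher, with PCNA at -0.67 and a list median of -0.26. List medians of the spliceosome lists ran from -0.52 for the minor spliceosome to -0.06 for U1 and U2 associated factors. In mut-SF3B1 KO against parental cells the counts higher and lower were 3 and 2, 1 and 2, 2 and 1, 0 and 0, 2 and 1, and 0 and 3 for the first 6 lists in that order. For snRNP assembly they were 7 and 2, with GEMIN5, the snRNA-binding subunit of the SMN complex, higher by 0.90 ± 0.10 (adjusted p = 0.00022) and GEMIN8 lower by -0.73. For SF3a and SF3b they were 2 and 1, and for DNA replication 0 and 1. Melanocyte markers had 0 higher and 7 lower of 9 in mut-SF3B1 KO and 4 higher and 1 lower in DD-wt-SF3B1.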

How the data were processed

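RNA of 8 MEL202 libraries (total RNA, TruSeq, paired reads of 100 bases on a HiSeq2500, per the labels' protocols) was processed with TopHat and Cufflinks on hg19, per the submitters' processing notes. For tool versions, annotation and strand, the answer is not given in the sources used here. A single table was deposited by the authors, and its values are taken as FPKM, since Cufflinks is named, rescaled so that the 75th percentile of every library is 10. These are not counts, so no count test was run and no counting interval can be given.

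From these values 1 locus per gene name was kept, the highest, with small RNA and unnamed loci left out and a mean of at least 1. Values were taken as log2(value + 1) and fitted with limma 3.58.1 in R 4.3.3 (empirical Bayes with trend). Lines were compared in a model of line and Shld state, whose spread includes any unequal response to Shld. Shld states within a line and their differences were compared in a model in which the parental pair gives the spread. P-values are two-sided and were adjusted by Benjamini-Hochberg over all genes. Both models were run on simulated data with the same noise for every gene and library (SD 0.1 on the log2 scale). That run cannot check whether the real libraries vary equally, since equal noise was built in. Transcript lengths and pseudogene names come from GENCODE 29, and promoters from RefSeq (GRCh38.p14). Coordinates of the genes in hg19 are not given here.

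Alternatives were other pseudocounts, no filter, all loci, quantile and median scaling, no Shld term, a length correction (lowess, span 0.3) and leaving out each library. Members and lists were chosen with earlier results of these data known. Any member could be named, with those past the threshold and the largest rise and fall of each role group given, and from other lists up to 4 past the threshold.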

Additional observations from a re-analysis of the deposited data

How the results depend on the processing

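With 1 library per group, single libraries limit every comparison. Leaving out each library in turn gave between 12 and 26 called members in DD-wt-SF3B1 against parental cells, 3 to 14 in mut-SF3B1 KO against parental cells, 0 to 2 in DD-mut-SF3B1 against parental cells, 0 to 1 in mut-SF3B1 KO against DD-mut-SF3B1, 17 to 28 in mut-SF3B1 KO against DD-wt-SF3B1 and 17 to 28 in DD-wt-SF3B1 against DD-mut-SF3B1. Counts over all genes moved with the library left out as well. Where a line was left with 1 library, that library was assumed to vary like the others. Without a filter on low values 11 members were called higher and 0 lower in mut-SF3B1 KO against parental cells. Of 15366 genes, 1764 were higher and 2112 lower in that setting. Median scaling gave 11 members higher and 4 lower there, beside 1770 and 2415 of 10520 genes. In DD-mut-SF3B1 against parental cells 2 were called with quantile normalization, 3 with the length correction and 2 with lengths of all protein-coding transcripts, a setting chosen after seeing the data. All of these members were higher. In these settings 1312, 1249 and 1251 of all genes were higher and 1348, 1160 and 1201 lower. In mut-SF3B1 KO against DD-mut-SF3B1 the same settings gave 1, 1 and 2 members. Of all genes, 699, 670 and 641 were higher there and 738, 825 and 815 lower. With the length correction the difference of DD-wt-SF3B1 from parental cells turned sign for SNRPC (0.037) and AQR (-0.047). The cause of these shifts was not tested. All tests of Shld and of differences in response gave 0 called members in the settings run. The 2 Shld states are paired by line in the model over 4 lines, whose result stands above. Beyond that, no paired analysis was possible because each group has 1 library, so replicate numbers pair nothing. Depth is unknown, so the precision of low genes such as PUF60 cannot be given.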
